A study of Mus musculus with 6 samples.

Results

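The claudins described here were Cldn1, Cldn2, Cldn3, Cldn5, Cldn9, Cldn10, Cldn11 and Cldn12, which are 8 of the 33 claudin genes matched to the counts and 8 of 22086 genes in all. They were chosen by their counts in these same libraries, as claudins known from choroid plexus, endothelium, myelin or astrocytes, with the difference between genotypes already known. Their levels and their differences between genotypes are therefore a description and carry no test. Polysomal mRNAs were recovered by translating ribosome affinity purification (TRAP), in which ribosomes carrying a GFP-tagged protein L10a are immunoprecipitated, from the hippocampus of 6 weeks-old mice. All 6 libraries carried the tag (tg:Aldh1L1-RPL10aGFP), driven by the promoter of the astrocyte gene Aldh1l1, and both floxed alleles of connexin 43 (Cx43 fl/fl). The 3 Cx43FL libraries, called littermates in the labels, had nothing more, and the 3 Cx43KO libraries also carried Gfap Cre, in which the human GFAP promoter drives the recombinase. How many mice gave each library is not given in the sources used here, so that the spread between libraries may be partly technical.

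Claudins are membrane proteins with 4 transmembrane segments whose extracellular loops meet those of the neighbouring cell and close, or selectively open, the space between cells at tight junctions. Barrier-forming claudins seal this space, whereas channel-forming claudins let chosen ions and water through. In the brain, tight junctions join endothelial cells of the vessels, epithelial cells of the choroid plexus and the wraps of the myelin sheath. Most claudins end in a short motif, often tyrosine and valine, that binds the PDZ domains of the ZO scaffold proteins on the cytoplasmic side.

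The last 24 bases of each coding sequence are shown because this end is the part by which claudins attach to their scaffold. They were read 5′ to 3′ from the GENCODE transcripts (GRCm38) that carried the counts, and capitals mark the codons for tyrosine and valine with the stop codon where the sequence ends in them.
Cldn1: tctagtgggaaagacTATGTGTGA
Cldn2: tacagcctgactgggTATGTGTGA
Cldn3: tacgaccgcaaggacTACGTCTGA
Cldn9: ctggataagagggacTATGTGTGA
Cldn5: tacgacaagaagaacTATGTCTAA
Cldn12: ccagtagtctcacacagcacttaa
Cldn11: catgccaagagtgcccatgtctaa
Cldn10: tttgataaaaatgccTATGTCTAA
Of the 8 coding sequences, 6 ended in codons for tyrosine and valine, and those of Cldn11 and Cldn12 did not. The coding sequences had between 207 codons in Cldn11 and 244 codons in Cldn12. The longest run of bases shared by any pair of the 8 transcripts was 16, between Cldn3 and Cldn9 and between Cldn5 and Cldn9, which is shorter than a sequenced read.

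The total counts on transcripts were between 33423491 and 77030398 per library, the highest being Cx43KO replicates 2 and 3. Where 3 values are given for a genotype, they are those of replicates 1, 2 and 3 in this order. Levels are given as CPM, the counts per M counts of the library after TMM scaling, and 3 counts in a library, taken as its limit of detection, correspond to 0.0926 to 0.199 CPM. This limit covers counting error only. The targeted gene Gja1, which encodes Cx43, had 92.0, 91.7 and 82.3 CPM in the Cx43FL libraries against 87.2, 98.4 and 95.1 CPM in the Cx43KO libraries. Gja1 was thus not lower in the libraries labelled Cx43KO, and totals over the transcript do not show whether the deleted part is covered. The genotype names follow the labels throughout. Of the astrocyte markers that check the cell type, Slc1a2 was between 5687 and 14574 CPM and Aqp4 between 313 and 877 CPM over the 6 libraries. A pair of libraries stood apart on marker lists. Cx43FL replicate 2 had 632 CPM summed over 16 choroid plexus genes, against at least 11092 in every other library. Cx43KO replicate 1 had the highest sums of myelin and neuron genes and the lowest of astrocyte genes. Since these are bulk libraries, fewer cells of a type and less RNA per cell cannot be told apart.

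Cldn10 was the most abundant of the 8 claudins per length of transcript in every library. Cldn1, Cldn2, Cldn3 and Cldn9 were higher in each Cx43KO library than in each Cx43FL library, which is 4 of 8 members. For Cldn5, Cldn10, Cldn11 and Cldn12 the libraries of both genotypes overlapped. Of 13545 genes tested, 8.08% lay higher in each Cx43KO library and 7.45% lower, and 0 of the 8 claudins lay lower in each. Without Cx43FL replicate 2, and likewise without Cx43KO replicate 1, the claudins higher in each Cx43KO library were also 4. Since the members were chosen on this contrast, nothing is read from their count against that share.

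**Figure D1:**
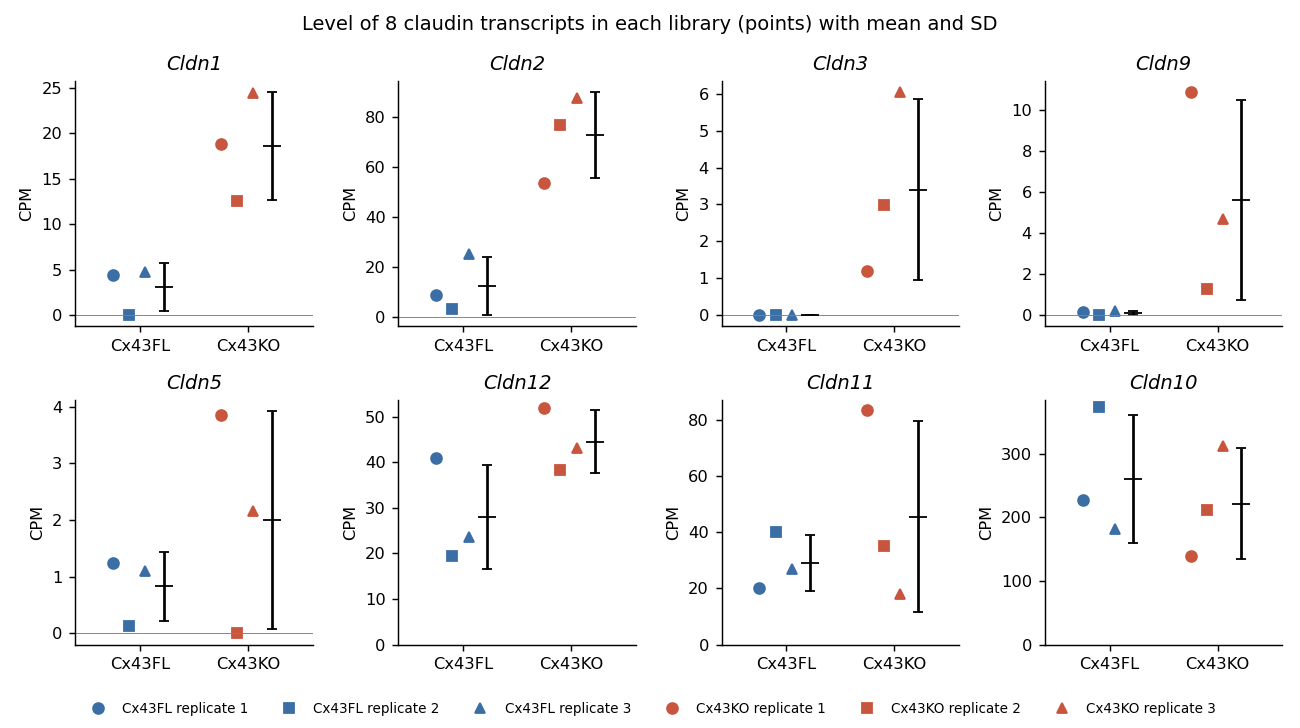
Level in CPM (vertical axis, linear, a different range in each panel) of 8 claudin transcripts in 3 Cx43FL libraries (blue) and 3 Cx43KO libraries (red), with the mean and SD of each genotype in black. Cldn1, Cldn2, Cldn3 and Cldn9 in the upper row have every red point above every blue point, and the points of the lower row overlap.

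Cldn2 forms a channel for small cations and water in leaky epithelia and is known from the choroid plexus. The gene lies on chromosome X of GRCm38 (chrX:139800828-139811386, plus strand), and the counted transcript has 2 exons and 3044 bases, of which 22.8% are coding. Cldn2 had 8.89, 3.05 and 25.4 CPM in the Cx43FL libraries against 53.8, 77.0 and 87.5 CPM in the Cx43KO libraries. All Cx43KO libraries were above all Cx43FL libraries, and within Cx43FL replicate 2 was the lowest and replicate 3 the highest. The mean was 12.4 ± 11.6 CPM in Cx43FL and 72.8 ± 17.2 CPM in Cx43KO (SD, n = 3 libraries each). Between genotypes the log2 fold change was 2.55, with a standard error of 0.65, and it ranged from 2.07 without Cx43FL replicate 2 to 3.60 without Cx43FL replicate 3. A shorter annotated transcript, Cldn2-202, which shares 576 of its 755 bases with the counted one, had 1, 0 and 73 counts in the Cx43FL libraries against 71, 76 and 21 in the Cx43KO libraries. The longer transcript of Cldn2 thus held the most counts in every library, and a read in shared bases can count on both.

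Cldn1 is a sealing claudin of many epithelia, found also in the choroid plexus. On chromosome 16 (chr16:26356642-26371841, minus strand) it has 4 exons and 3247 bases in its only counted transcript. Cldn1 had 67, 1 and 74 counts in the Cx43FL libraries, equal to 4.41, 0.066 and 4.82 CPM. In the Cx43KO libraries it had 303, 312 and 790 counts, equal to 18.8, 12.5 and 24.4 CPM. Cx43FL replicate 2 was below the limit of detection, and the lowest Cx43KO library was still above the highest Cx43FL library. The mean was 3.10 ± 2.63 CPM in Cx43FL and 18.6 ± 5.93 CPM in Cx43KO (SD, n = 3 libraries each). A log2 fold change of 2.58 with a standard error of 1.04 resulted, which was 1.99 without Cx43FL replicate 2.

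Cldn3 is a sealing claudin of epithelia. Its single exon is on chromosome 5 (chr5:134986214-134987472, plus strand) and has 1259 bases. Cldn3 had 0 counts in each Cx43FL library, and 19, 74 and 196 counts in Cx43KO replicates 1 to 3. These were 1.18, 2.97 and 6.05 CPM, so that the Cx43KO libraries differed among themselves by more than the lowest differed from 0. The mean of 3.40 ± 2.46 CPM in Cx43KO (SD, n = 3 libraries) was at least 17.2-fold higher than in Cx43FL, where the limit is set by 3 counts per library. The lowest Cx43KO library alone was at least 5.98-fold higher. Cldn3 overlaps the antisense gene Wbscr25 by 40 bases, and since the amplification kit does not keep the strand, reads of both genes cannot be told apart over those bases.

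Cldn9, a claudin known from the inner ear, was near 0 in each Cx43FL library too. It lies on chromosome 17 (chr17:23682584-23684026, minus strand), has 1 exon of 1443 bases and lies 138 bases from Cldn6, which had 0 counts in each library. Cldn9 had 2, 0 and 3 counts in the Cx43FL libraries against 175, 31 and 151 in the Cx43KO libraries. No Cx43FL library was above 3 counts, and among the Cx43KO libraries replicate 1 was the highest and replicate 2 the lowest. Their levels were 10.9, 1.25 and 4.66 CPM in Cx43KO replicates 1 to 3. With 5 counts summed over Cx43FL and 357 over Cx43KO, the ratio per counts of the libraries was 44.4 (95% interval 18.8 to 137.5, which covers counting error only). With each library left out in turn, this ratio of Cldn9 ranged from 29.0 without Cx43KO replicate 1 to 73.6 without Cx43FL replicate 3, and it was 29.7 without Cx43FL replicate 2.

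All 8 claudins passed the filter on low counts, but Cldn3 and Cldn9 passed through the Cx43KO libraries alone, with 0 Cx43FL libraries above its limit of 0.636 CPM. Members that pass in this way had to differ, and neither their size nor their number is support for a difference.

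The stretches before the start of the genes that did not overlap between genotypes are shown because these genes were high in the same libraries. They are the 250 bases upstream of the RefSeq start of Cldn1 (chr16:26371840-26372089, minus strand), Cldn2 (chrX:139800558-139800807, plus strand) and Cldn3 (chr5:134985964-134986213, plus strand) in GRCm38.p6, written 5′ to 3′ along the gene. Capitals mark matches to the TATA box TATAAA, the GC box GGGCGG, the CCAAT box CCAAT and TAATCC, the core letters bound by Otx factors, each searched on both strands.
Cldn1: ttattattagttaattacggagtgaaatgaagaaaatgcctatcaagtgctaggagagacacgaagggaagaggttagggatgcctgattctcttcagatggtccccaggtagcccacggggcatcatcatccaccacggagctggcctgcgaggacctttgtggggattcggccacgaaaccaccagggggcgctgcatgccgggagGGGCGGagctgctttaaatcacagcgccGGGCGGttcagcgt
Cldn2: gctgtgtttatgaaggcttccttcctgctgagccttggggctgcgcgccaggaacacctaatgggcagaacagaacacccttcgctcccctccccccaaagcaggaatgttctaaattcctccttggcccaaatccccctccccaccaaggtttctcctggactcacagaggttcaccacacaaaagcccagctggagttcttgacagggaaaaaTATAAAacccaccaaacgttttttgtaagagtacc
Cldn3: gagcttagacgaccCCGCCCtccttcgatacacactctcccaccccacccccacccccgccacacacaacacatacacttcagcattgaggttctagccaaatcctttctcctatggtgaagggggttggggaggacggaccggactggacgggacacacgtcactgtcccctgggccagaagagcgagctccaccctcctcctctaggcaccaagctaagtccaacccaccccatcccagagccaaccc
Cldn1 held 2 GC boxes, Cldn3 held 1 GC box near the far end of its stretch, and Cldn2 held 1 TATA box and no GC box, with no overlap between matches. Of 32851 RefSeq stretches of this length, 32.7% held the GC box, 12.4% the TATA box, 33.8% the CCAAT box and 6.25% TAATCC. Those last letters, like CCAAT, were in none of the 3 stretches shown, which says only that they are not in these windows.

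Cldn5 is the claudin that seals the endothelium of brain vessels. It lies on chromosome 16 (chr16:18776847-18778262, plus strand) and has 1 exon of 1416 bases. Cldn5 had 19, 2 and 17 counts in the Cx43FL libraries, equal to 1.25, 0.13 and 1.11 CPM. In the Cx43KO libraries it had 62, 0 and 70 counts, equal to 3.85, 0 and 2.16 CPM. Replicate 2 of each genotype was below the limit of detection, while the other Cx43KO libraries were above each Cx43FL library. The log2 fold change of 1.26 was smaller than its standard error of 1.63. Of the defining markers of endothelium, Pecam1 was at most at 0.862 CPM, Cdh5 at most at 3.12 CPM and Flt1 at most at 7.76 CPM.

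Cldn12, a claudin of broad expression also found in brain endothelium, was well counted in each library. It lies on chromosome 5 (chr5:5505015-5514789, minus strand), with 5 exons and 3752 bases in the counted transcript. Cldn12 had 41.0, 19.5 and 23.6 CPM in the Cx43FL libraries against 52.0, 38.4 and 43.1 CPM in the Cx43KO libraries. The overlap came from Cx43FL replicate 1, which lay between the Cx43KO libraries. The log2 fold change was 0.67 (standard error 0.42) and 1.03 without Cx43FL replicate 1. Of 7 annotated Cldn12 transcripts, 3 share 97.0% to 99.0% of their bases with the counted one and had 91.8% to 100.4% of its counts, so that these 4 cannot be told apart here.

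Cldn11 builds the tight junctions between the wraps of central myelin and is made by oligodendrocytes. It lies on chromosome 3 (chr3:31149920-31164324, plus strand), with 3 exons and 1870 bases. Cldn11 had 20.2, 39.998 and 27.0 CPM in the Cx43FL libraries against 83.8, 35.0 and 18.2 CPM in the Cx43KO libraries. Both the highest and the lowest library were Cx43KO libraries, replicates 1 and 3. The log2 fold change was 0.65 (standard error 0.55), and without Cx43KO replicate 1 it was -0.13, the opposite direction.

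Cldn10 forms paracellular ion channels, with variants that prefer cations or anions, and is expressed by astrocytes in the brain. It lies on chromosome 14 (chr14:118854732-118875489, plus strand, for the counted transcript Cldn10-203), with 5 exons and 2128 bases. Cldn10 had 226, 373 and 181 CPM in the Cx43FL libraries against 139, 212 and 312 CPM in the Cx43KO libraries. The lowest library was Cx43KO replicate 1 and the highest Cx43FL replicate 2, and the others of both genotypes were interleaved. The log2 fold change was -0.23 (standard error 0.37), 0.11 without Cx43FL replicate 2 and 0.0049 without Cx43KO replicate 1. The transcripts Cldn10-201 and Cldn10-202, which start further upstream with another first exon, had 87.4% to 94.7% and 76.3% to 86.5% of the counts of Cldn10-203. Cldn10-201 shares 685 of its 1148 bases with Cldn10-203, and reads in shared bases were counted on each of them, so that the use of the start sites was not resolved.

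**Figure D2:**
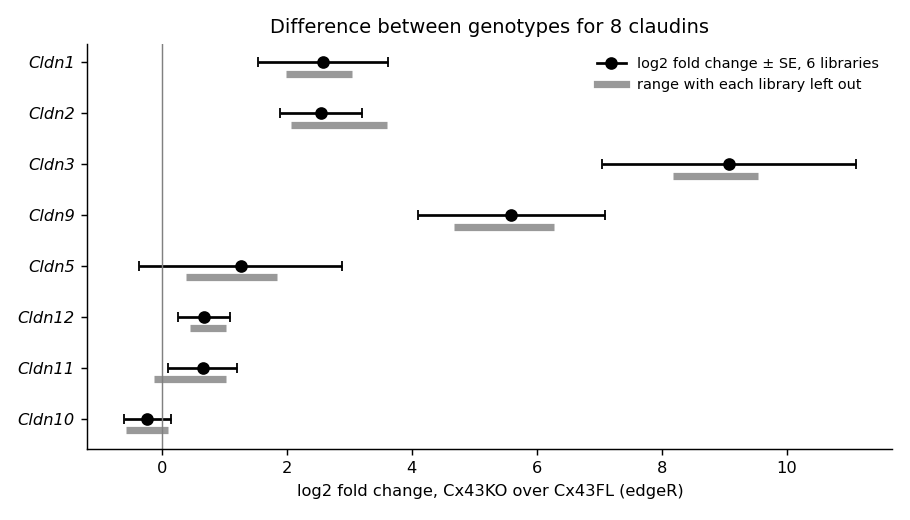
Log2 fold change of Cx43KO over Cx43FL (horizontal axis) for each claudin, with the standard error over 6 libraries as a black bar and the range with each library left out in turn in grey. The values for Cldn3 and Cldn9 depend on the prior count that edgeR adds to near-empty Cx43FL libraries and are no measured sizes. The grey ranges of Cldn10 and Cldn11 cross 0.

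With edgeR's quasi-likelihood test, calls needed an adjusted p-value below 0.05 together with a mean of over 50 normalized counts in the higher genotype. This called 0.00738% of the genes tested higher in Cx43KO, which is 1 gene, and 0% lower, and 0 of the 8 claudins. At an unadjusted p-value below 0.05, 5.66% of the genes were higher, among them 4 of the 8 claudins, Cldn1, Cldn2, Cldn3 and Cldn9. DESeq2 with its prior on fold changes called 0.827% of its tested genes higher and 0.124% lower, and 2 of the 8 claudins, Cldn2 and Cldn9, higher. Without the prior it called 1.03% higher, and Cldn3 besides these. As the claudins were selected on these libraries, the calls are given for completeness only.

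Levels of different claudins can be compared per length, as CPM per kb of the counted transcript. In Cx43FL the order was Cldn10 at 122 ± 47.2, Cldn11 at 15.5 ± 5.39, Cldn12 at 7.47 ± 3.04, Cldn2 at 4.09 ± 3.81, Cldn1 at 0.955 ± 0.811, Cldn5 at 0.586 ± 0.430 and Cldn9 at 0.0756 ± 0.0691 CPM per kb, with Cldn3 not counted (SD, n = 3 libraries). Cldn10 stood clear of Cldn11 by more than their spread, and Cldn5 of Cldn9, while all other neighbours in this order overlapped within 1 SD. In Cx43KO, Cldn10 at 104 ± 41.0 was followed by Cldn11 at 24.4 ± 18.2 and Cldn2 at 23.9 ± 5.66 CPM per kb, which did not differ beyond their spread. Below them were Cldn12 at 11.9 ± 1.85, Cldn1 at 5.72 ± 1.83, Cldn9 at 3.87 ± 3.38, Cldn3 at 2.70 ± 1.96 and Cldn5 at 1.41 ± 1.36 CPM per kb. Neighbours among the last 4 overlapped within 1 SD, and Cldn2, Cldn12 and Cldn1 did not overlap with each other.

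As a share of the summed CPM per kb of the 8 claudins, Cldn10 made up 79.8%, 86.3% and 73.0% of the Cx43FL libraries, against 41.1%, 61.9% and 68.7% of the Cx43KO libraries. The share of Cldn10 was thus lower in each Cx43KO library although its own level overlapped. Since the summed claudins were chosen on this contrast, these shares are a description only. Cldn2 made up 2.19%, 0.494% and 7.17% in Cx43FL and 11.2%, 15.7% and 13.4% in Cx43KO, again without overlap. Cldn11 reached 28.3% in Cx43KO replicate 1 and was between 4.54% and 12.4% in the other libraries.

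**Figure D3:**
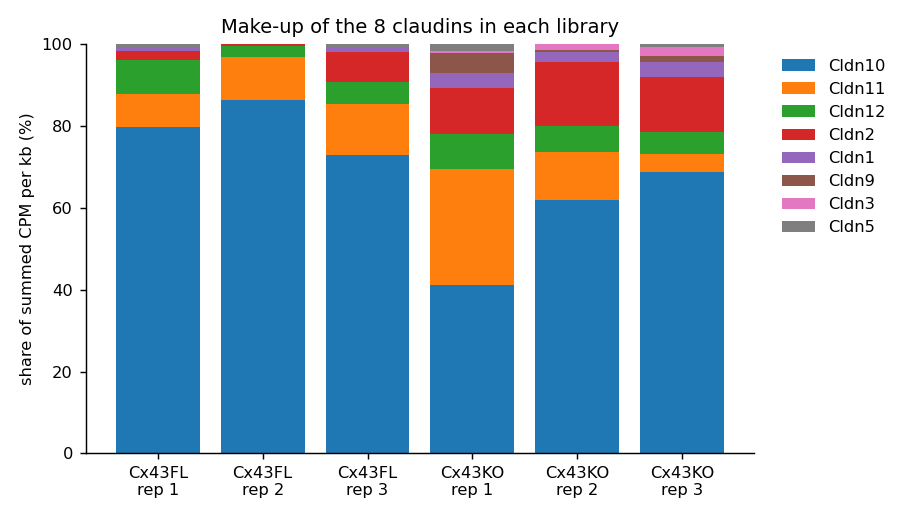
Share of each claudin in the summed CPM per kb of the 8 claudins (vertical axis, percent), 1 bar per library. Cldn10 (blue) takes 73.0% to 86.3% in the Cx43FL libraries and 41.1% to 68.7% in the Cx43KO libraries, where the red part of Cldn2 is larger.

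Markers of the cell types in which these claudins are known moved between libraries too. Summed over 16 choroid plexus genes, the level was 11092, 632 and 16849 CPM in the Cx43FL libraries against 36419, 29525 and 28135 CPM in the Cx43KO libraries. Of these 16 genes, 12 lay higher in each Cx43KO library, against 8.08% of all genes tested. All 16 had a log2 fold change above 0, against 54.4% of all genes tested, and the median was 1.73 against 0.071. Ttr, the transthyretin of the choroid plexus, had 9593, 450.1 and 14872 CPM in the Cx43FL libraries against 32150, 25644 and 21438 CPM in the Cx43KO libraries, and Folr1 was at 0 in Cx43FL replicate 2. edgeR called 0 of the 16 genes, while DESeq2 with its prior called 2 higher, Enpp2 and Prlr, against 0.827% of its tested genes. At an unadjusted edgeR p-value below 0.05, 3 of the 16 were higher and 0 lower, against 5.66% of all genes tested higher. The choroid plexus list was thus higher in the libraries in which Cldn1, Cldn2, Cldn3 and Cldn9 were higher, and its part in their difference was not tested.

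Set against the mean log2 level of these 16 genes in the same library, the genotype difference of Cldn2 was 0.55 on the scale of log2(CPM + 0.5), against 2.91 for Cldn2 alone. For Cldn1 the difference was 0.54 against 2.91. After this step the libraries of both genotypes overlapped, and the overlap rested on Cx43FL replicate 2, the library with the lowest level of Cldn1 and Cldn2. There, Cldn1 had 1 count, and Folr1, Aqp1, Col8a1 and Kcnj13 of the list were at most at 0.133 CPM. With all 6 libraries, the difference of Cldn1 and the list mean therefore depend partly on the 0.5 added to CPM. Without Cx43FL replicate 2 the difference relative to the list was 1.15 for Cldn2 and 0.80 for Cldn1, against 2.20 and 1.85 for these claudins alone. Each Cx43KO library was then above each Cx43FL library. The choroid plexus mean itself differed by 2.36, and by 1.05 without Cx43FL replicate 2. For Cldn3 and Cldn9, which had at most 3 counts in any Cx43FL library, such differences are set by the pseudocount of 0.5 and are not given. Cldn3 was at 0 in each Cx43FL library, at choroid plexus sums of 11092, 632 and 16849 CPM. In the Cx43KO libraries Cldn3 was at 1.18, 2.97 and 6.05 CPM, at sums of 36419, 29525 and 28135 CPM. This comparison was chosen after the values were seen.

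Pearson's r was taken across the 6 libraries, between log2(CPM + 0.5) of a claudin and that of a list's summed CPM. With the choroid plexus sum, r was 0.96 for Cldn1, 0.90 for Cldn2, 0.67 for Cldn9 and 0.60 for Cldn3. Ttr alone gave most of this sum, 9593 of 11092 CPM in Cx43FL replicate 1 and 32150 of 36419 CPM in Cx43KO replicate 1. Other lists ran alongside. With leptomeningeal and endothelial genes, r was 0.93 and 0.89 for Cldn1 and 0.90 and 0.89 for Cldn2. Cldn9 had r of 0.95 with leptomeningeal genes, 0.92 with mural cell genes and 0.92 with neuron genes, and Cldn3 had r of 0.92 with microglia genes. Both values of a point come from the same library and share its depth, and 2 of the 6 libraries stood apart, so that these correlations do not separate the lists. Leptomeningeal genes summed to between 113 and 209 CPM in Cx43FL and to between 287 and 525 CPM in Cx43KO, microglia genes to between 94.1 and 122 CPM and to between 130 and 164 CPM. Ependymal genes were between 80.7 and 163 CPM in Cx43FL and between 123 and 269 CPM in Cx43KO, mural cell genes between 34.8 and 43.3 and between 39.99 and 92.5 CPM. Higher in each Cx43KO library were 2 of 8 leptomeningeal, 2 of 9 microglia, 2 of 10 ependymal, 1 of 7 mural and 3 of 10 neuron genes tested. Over all genes tested this share was 8.08%, and nothing is read from such small counts. Among their defining markers, Lum was at 0 in Cx43FL replicate 2 and Tmem119 in Cx43KO replicate 1.

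The endothelial list, which holds no claudin, summed to between 13.3 and 31.9 CPM in Cx43FL and to between 35.3 and 56.2 CPM in Cx43KO. Of its 16 genes only 9 could be tested, of which 1 lay higher and 1 lower in each Cx43KO library, against 8.08% and 7.45% of all genes. In Cx43KO replicate 2, where Cldn5 had 0 counts, its defining markers Flt1, Cdh5 and Pecam1 had 0, 4 and 2 counts. In Cx43KO replicate 3, where Cldn5 had 70 counts, these markers had 3, 101 and 12 counts. Other genes of the list went the other way, Itm2a and Esam being highest in Cx43KO replicate 2, at 18.3 and 5.10 CPM. Pecam1 was highest in Cx43FL replicate 2, with 13 counts, where Cldn5 had 2. The whole list summed to 35.3 CPM in both Cx43KO replicates 2 and 3, and r of Cldn5 with the log2 of its sum was 0.59. Relative to the mean of this list, the difference between genotypes was 0.36 for Cldn5 and 0.51 for Cldn12 on the log2 scale, with overlapping libraries. Without Cx43FL replicate 2 these differences were 0.0056 and 0.41. The values for Cldn5 depend on the pseudocount of 0.5, as Cldn5 had 2 counts in Cx43FL replicate 2 and 0 in Cx43KO replicate 2. The pseudocount also weighs on the list mean, which was only 0.066 to 0.76 on this scale. The part of endothelial RNA in the values of Cldn5 and Cldn12 was not tested.

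The myelin list summed to 631, 1101 and 699 CPM in the Cx43FL libraries against 2874, 1138 and 679 CPM in the Cx43KO libraries. Of 13 myelin genes tested, 1 lay higher in each Cx43KO library, against 8.08% of all genes tested. Cx43KO replicate 1 was the highest library for Cldn11 and for the list, and the r of Cldn11 with the log2 of the list's summed CPM was 0.97. Mbp was at 607 CPM in Cx43KO replicate 1 and at most at 127 CPM in the others. Relative to the list, Cldn11 differed by -0.18 between genotypes on the log2 scale. The astrocyte list had its lowest sum of 15349 CPM in Cx43KO replicate 1 and its highest of 41654 CPM in Cx43KO replicate 3. Of its 14 genes, 3 lay lower in each Cx43KO library and 0 higher, against 7.45% and 8.08% of all genes tested. The log2 of its summed CPM had r of 0.66 with Cldn10, and that of oligodendrocyte precursor genes 0.79. Genes of high level weigh most in such sums, and Olig1 alone gave 122 to 258 CPM of the precursor sum. The 2 values of r therefore do not rank the lists. Relative to the astrocyte list, Cldn10 differed by -0.015 on the log2 scale, and by 0.28 without Cx43FL replicate 2. The part of myelin and astrocyte RNA in the values of Cldn11 and Cldn10 was not tested. Oligodendrocyte precursor genes summed to between 196 and 348 CPM and neuron genes to between 1724 and 5314 CPM over the 6 libraries.

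**Figure D4:**
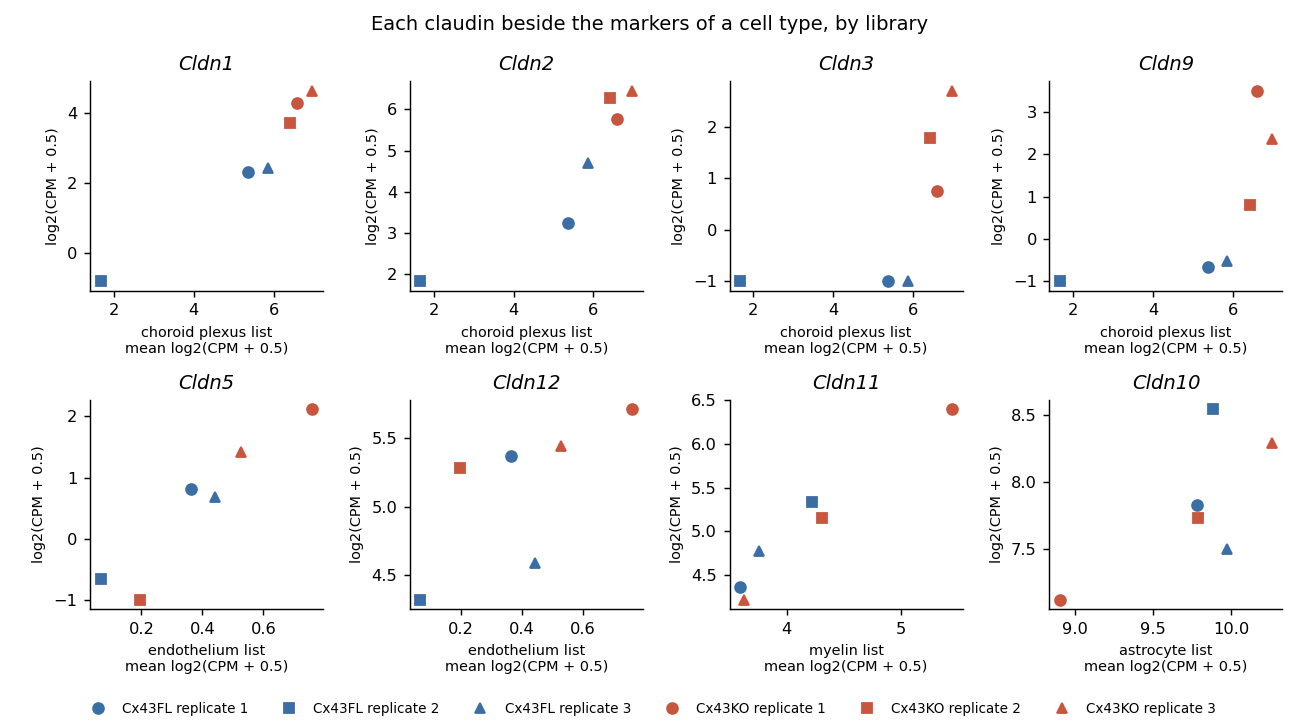
Level of each claudin (vertical axis, log2 of CPM plus 0.5) against the mean level of 1 marker list in the same library (horizontal axis, same scale), 1 point per library, Cx43FL in blue and Cx43KO in red. Cx43FL replicate 2 (blue square) is far to the left in the choroid plexus panels, and Cx43KO replicate 1 (red circle) is at the right end in the Cldn11 panel and the left end in the Cldn10 panel. Points of Cldn3, Cldn5 and Cldn9 at the lower end, at -1, are libraries with 0 counts.

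The genes whose pattern over the 6 libraries was most like that of Cldn2 were Lbp, Pcdhga3 and Timp2, with Pearson's r of at least 0.995. For Cldn1 they were Kdm4c, Mfsd3 and Cdkl4 (r of at least 0.994), and for Cldn3 Armc9, Il10ra and Cd53 (0.983). For Cldn5 they were Slc39a13, Fbxo32 and Tpm2 (0.989), for Cldn12 Brca1, Sec22c and Extl3 (0.979), for Cldn11 Prcp, Fam131b and Kalrn (0.989), and for Cldn10 Tmem127, Ccnh and Eef1d (0.991). With 6 libraries such values are common, between 102 genes for Cldn12 and 392 genes for Cldn11 having an r over 0.9.

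Of the other 25 claudin genes matched, 16 had 0 counts in all libraries, among them Cldn6, Cldn7, Cldn8, Cldn16 and Cldn18. The 2 that passed the filter were Cldn19, known from the sheath of peripheral nerve and the kidney, and Cldn34c1. Cldn19 had 1.51, 7.10 and 3.65 CPM in the Cx43FL libraries against 3.54, 1.25 and 1.67 CPM in the Cx43KO libraries, with overlapping libraries, the log2 fold change being -0.93 with a standard error of 1.04. Cldn34c1 had 3.03, 2.32 and 2.87 CPM in the Cx43FL libraries against 1.61, 1.65 and 1.08 CPM in the Cx43KO libraries. All Cx43KO libraries of Cldn34c1 were below all Cx43FL libraries, and the log2 fold change was -0.92 (standard error 1.03). edgeR gave both an adjusted p of 0.802, and 0 of these claudins were called by edgeR or DESeq2 or had an unadjusted p-value below 0.05. Outside the filter, Cldn22 had 13, 0 and 0 counts in the Cx43FL libraries against 146, 2 and 0 in the Cx43KO libraries, and Cldn14 had 25 counts in Cx43KO replicate 2 and at most 2 in the others, both named after their values were seen.

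The partners of claudins at the tight junction were compared as a list of 31 genes, of which 29 could be tested. edgeR called 0 of them in either direction, as did DESeq2 with its prior. At an unadjusted edgeR p-value below 0.05, 2 were higher and 1 lower. Over all 13545 genes tested, 767 (5.66%) were higher and 362 lower at this limit. The median log2 fold change was 0.27, against 0.071 over all genes tested, and 18 of 29 values were positive, against 54.4% of all genes. Each Cx43KO library was above each Cx43FL library in 3 of them and below in 3, a relation found in 8.08% and 7.45% of all genes tested. The lowest adjusted p among them was 0.540.

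Among the transmembrane partners, occludin (Ocln), which runs in the same strands as claudins, had 1.25, 0.398 and 9.57 CPM in the Cx43FL libraries against 14.5, 13.5 and 10.2 CPM in the Cx43KO libraries. Its libraries did not overlap, the log2 fold change being 1.76 with a standard error of 1.03 (edgeR, adjusted p = 0.633). F11r, the junctional adhesion molecule A, had 8.69, 0.199 and 8.01 CPM in the Cx43FL libraries against 8.75, 3.54 and 58.3 CPM in the Cx43KO libraries. Cx43KO replicate 3 was far above and Cx43FL replicate 2 far below the other libraries, and the log2 fold change of F11r was 2.06 (standard error 1.20). Esam, an adhesion molecule of endothelial junctions that the endothelial list also holds, had 0, 16 and 11 counts in the Cx43FL libraries against 0, 127 and 86 in the Cx43KO libraries.

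Among the scaffolds, Tjp1, which encodes ZO-1, had 247, 300.0 and 268 CPM in the Cx43FL libraries against 144, 197 and 284 CPM in the Cx43KO libraries. The libraries of Tjp1 overlapped, the log2 fold change being -0.38 with a standard error of 0.31 (edgeR, adjusted p = 0.718). Cgnl1, which encodes paracingulin, had 10.4, 0.332 and 12.2 CPM in the Cx43FL libraries against 29.1, 23.9 and 33.3 CPM in the Cx43KO libraries without overlap. Like Cldn1 and Cldn2, Ocln, F11r and Cgnl1 had their lowest value in Cx43FL replicate 2, the library with the lowest choroid plexus sum. Cingulin (Cgn), whose log2 fold change was -1.94 with a standard error of 1.69, had at most 36 counts in any library.

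Pard6b, a polarity protein with the highest log2 fold change of 2.78 (standard error 1.01), overlapped between genotypes and was at 45.8 CPM in Cx43KO replicate 1 and between 1.51 and 7.998 CPM elsewhere. Crb3 likewise had 331 counts in Cx43KO replicate 1 and at most 63 in the others. Pard3, a scaffold that places tight junctions at the cell apex, had 34.5, 83.2 and 34.4 CPM in the Cx43FL libraries against 3.72, 22.0 and 13.9 CPM in the Cx43KO libraries. All Cx43KO libraries of Pard3 were below all Cx43FL libraries, the log2 fold change being -1.94 with a standard error of 0.64 (edgeR, adjusted p = 0.540). Pard6a had 25.2, 29.1 and 21.9 CPM in the Cx43FL libraries against 7.08, 17.5 and 14.0 CPM in the Cx43KO libraries, also without overlap. Ildr2 was the remaining partner higher in each Cx43KO library, and Amotl2 the remaining one lower, with log2 fold changes of 0.73 and -0.86.

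**Figure D5:**
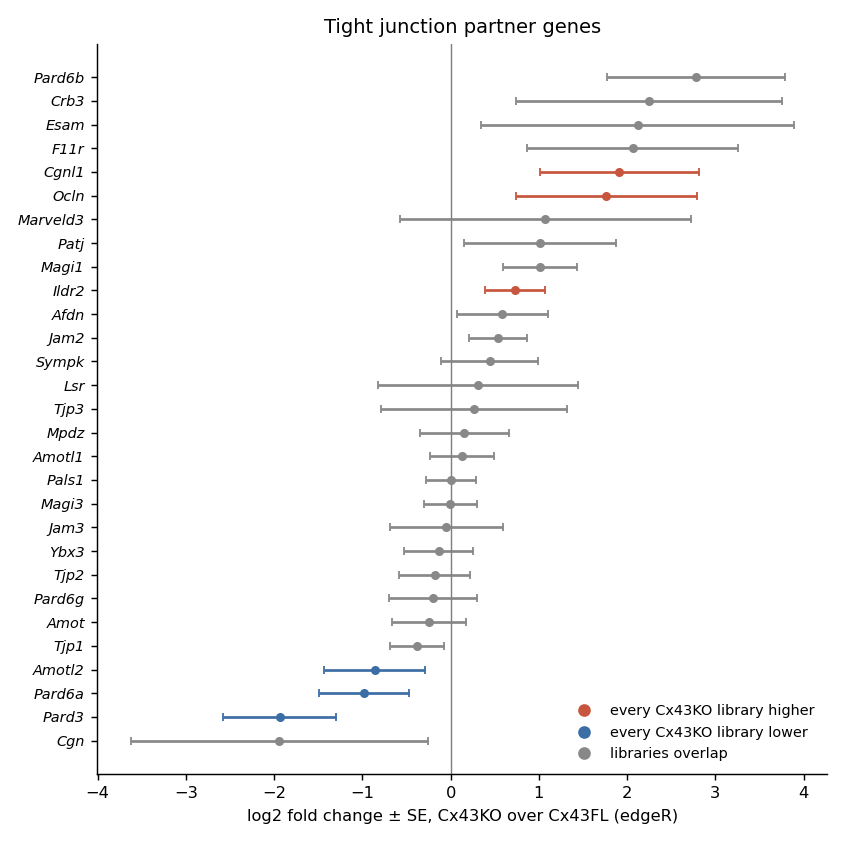
Log2 fold change of Cx43KO over Cx43FL with its standard error (horizontal axis) for 29 tight junction partner genes. The 3 genes in red (Cgnl1, Ocln and Ildr2) are higher and the 3 in blue (Pard3, Pard6a and Amotl2) lower in each Cx43KO library than in each Cx43FL library, and the libraries overlap for the genes in grey.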

How the data were processed

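Whole hippocampi were taken for TRAP, and RNA was amplified with the NuGEN Ovation kit. The authors filtered reads with Eoulsan, mapped them to mm10 with STAR, removed reads mapping more than once and counted with HTSeq-count 0.5.3. They deposited raw counts per Ensembl transcript. Of 75466 transcripts, 73157 matched GENCODE vM21 (GRCm38, the assembly of mm10), and 1.60% to 1.78% of the counts were on the others. For each gene the transcript with most counts over the 6 libraries stood for the gene.

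Genotypes were compared with edgeR 4.0.16 (TMM, filterByExpr with a minimum count of 10, quasi-likelihood F test, genotype alone, Benjamini-Hochberg adjustment over all genes tested) in R 4.3.3. Standard errors are the log2 fold change divided by the root of F. DESeq2 1.42.0, other scalings and filters, a replicate block and leaving out each library were alternatives. Correlations used log2(CPM + 0.5), for a marker list that of its summed CPM. Promoter stretches are from RefSeq (GRCm38.p6). Of the 8 claudins, 7 matched that table, all but Cldn9.

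The members and lists were chosen with earlier results of these data known. The genes named are the 8 claudins, other claudins passing the filter, Ocln, Tjp1, F11r, partners called or with the 3 highest and 3 lowest changes, the 3 genes most like each claudin, Gja1 and defining markers. The genes most like Cldn9 are not reported here. Partners separating the genotypes were named after their values were seen. Libraries were sequenced by 3 on 2 lanes, and their assignment to lanes is not given in the sources used here. The numbers under which the authors deposited the libraries fall in separate ranges for both genotypes, so that a batch, if there was one, and genotype cannot be told apart.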

Additional observations from a re-analysis of the deposited data

How the results depend on the processing

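DESeq2 called 113 genes higher and 17 lower with its prior, and 147 and 27 without it, against 1 and 0 with edgeR. Requiring 10 counts in every library or summing a gene's transcripts gave 0 genes higher. Leaving out each library gave between 0 and 11, the 11 without Cx43KO replicate 1. With the replicate number as a block there were 2 genes higher and 0 lower. Libraries of the same number did not deviate together (correlations of 0.011, -0.0040 and -0.055), so the numbers do not pair them. The claudins higher in each Cx43KO library were 4 in all alternatives but the filter of 10 counts in every library, which left 1, Cldn2, since Cldn1, Cldn3 and Cldn9 each have a Cx43FL library under that count, and leaving out Cx43FL replicate 1 (5) or Cx43KO replicate 2 (6). The direction of Cldn10 and Cldn11 rested on single libraries. Their log2 fold changes ranged from -0.57 to 0.11 and from -0.13 to 1.03 with each library left out, Cldn10 being at 0.11 without Cx43FL replicate 2 and at 0.0049 without Cx43KO replicate 1, and Cldn11 at -0.13 without the latter. The other 6 claudins kept their direction in every alternative that could test them. The calls of partners and of other claudins stayed at 0 in all alternatives. Depth limits what can be said of Cldn3, Cldn5 and Cldn9, whose Cx43FL libraries had at most 19 counts, and of Cldn1 in Cx43FL replicate 2, with 1 count.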
